A study of Mus musculus with 15 samples.

Results

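The testis-specific serine kinases Tssk1, Tssk2, Tssk3, Tssk4 and Tssk6 and the calcium/calmodulin-dependent kinase Camk4 were followed through 15 mouse testis RNA-seq libraries. These 6 genes were taken by name, through their Entrez identifiers, from a table of 23510 gene identifiers. All 6 passed the filter (a mean of at least 1 FPKM, fragments scaled to transcript length and library size) that left 14514 genes for testing. The study asked what becomes of the testis when the muscarinic acetylcholine receptor M1, M3 or M5 is knocked down by short hairpin RNA (shRNA). All animals were ICR mice, and there were 5 groups with 3 libraries in each. Con is labelled control, and its labels give no treatment. MNC received the lentiviral vector control, and M1, M3 and M5 are labelled as knockdowns of the receptor of that name. Per the study's methods, lentivirus was injected into the testes of 5-week-old males, with 3 different shRNAs for each receptor, and tissue was taken 10 days later. MNC, M1, M3 and M5 thus shared lentivirus and injection. Whether Con animals were injected, or were of the same age, is not given in the sources used here. The labels do not tie the virus to a cell type, and whole testis mixes germ cells with somatic cells. The labels name testis as the tissue in every sample, but their extraction note speaks of sperm. Genes of Sertoli and Leydig cells were present in every library, with summed levels of at least 373.5 FPKM over 7 Sertoli genes and 652.2 FPKM over 5 Leydig genes.

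TSSK proteins form a small kinase family made almost only in the testis, in male germ cells after meiosis, while round spermatids elongate into sperm. TSSK1 and TSSK2 bind a shared substrate, TSKS, and male mice lacking both genes are infertile. TSSK3 is likewise needed for male fertility in mice, and TSSK4 phosphorylates ODF2, a protein of the outer dense fibres of the sperm tail. TSSK6 is needed when histones give way to protamines in the sperm nucleus, and the co-chaperone TSACC helps to activate it. CAMK4 is switched on by calcium and calmodulin and has been tied to the same exchange of nuclear proteins in spermatids.

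The positions of the Tssk genes are given on build mm10 (RefSeq coordinates of GRCm38.p6). Tssk1 (chr16:17894203-17895653) and Tssk2 (chr16:17898637-17900024) are single-exon neighbours on the plus strand, 2983 bases apart. Tssk3 lies at chr4:129489008-129491730 on the minus strand and has 2 exons. Tssk4 lies at chr14:55643651-55652539 with 4 exons and Tssk6 at chr8:69902184-69903518 with 1 exon, both on the plus strand. The coding sequences of Tssk1 and Tssk2 were identical at 81.3% of 1047 aligned bases, against 59.8% to 66.1% for every other pair of the 6. Their longest identical coding run was 113 bases, at coding bases 371 to 483 of both genes. It is shown in capitals, with 20 flanking bases on each side, because a read that falls inside it cannot be placed in one gene or the other:
Tssk1, chr16:17894703-17894855, plus strand: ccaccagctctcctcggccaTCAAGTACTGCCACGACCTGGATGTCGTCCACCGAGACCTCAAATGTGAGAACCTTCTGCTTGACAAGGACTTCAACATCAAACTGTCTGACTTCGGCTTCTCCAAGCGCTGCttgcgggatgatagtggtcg
Tssk2, chr16:17899085-17899237, plus strand: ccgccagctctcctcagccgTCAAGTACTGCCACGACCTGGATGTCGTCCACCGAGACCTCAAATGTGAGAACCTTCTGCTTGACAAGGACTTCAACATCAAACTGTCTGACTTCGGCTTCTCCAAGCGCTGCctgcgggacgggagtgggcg

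Reads could also be shared with genes outside the family. Of all windows of 50 bases in the GENCODE transcript of Tssk1, 3.83% were also found in Tssk2 or in Dgcr2, which lies on the opposite strand. Of the Tssk2 windows, 9.34% were found in Tssk1. Of the Tssk6 windows, 25.35% were found in Ndufa13, a respiratory chain gene whose transcript overlaps Tssk6 on the opposite strand. For Tssk3 and Tssk4 the share was 0.0%, and for Camk4 it was 0.86%, with an antisense gene. The library protocol names no step that marks strand, so reads of such overlaps cannot be told apart. Levels of Tssk1, Tssk2 and Tssk6 are uncertain for these reasons. The shares do not bound that uncertainty, since they count exact matches only and the study's mapping allowed mismatches. For Tssk1 the share is taken over 3651 windows of a transcript longer than the RefSeq gene. The RefSeq span of Tssk3 overlaps Fam229a by 541 bases, on the opposite strand. That of Tssk4 overlaps Tm9sf1 by 156 bases on the opposite strand and Gm49747 by 2702 bases on the same strand. No window of 50 bases was shared with these genes in the transcripts used, and the effect of the overlaps was not tested.

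The upstream regions of Tssk1 and Tssk2 also resembled each other. A local alignment of the 250 bases before each RefSeq start matched 82 of 102 aligned bases (80.4%), the highest score among the 10 pairs of Tssk genes. The matched stretches run from 114 to 2 bases before the Tssk1 start and from 135 to 15 bases before the Tssk2 start. They are shown because the levels of both genes are set side by side in what follows, with capitals for the bases that are identical in the alignment:
Tssk1, chr16:17894089-17894201, plus strand: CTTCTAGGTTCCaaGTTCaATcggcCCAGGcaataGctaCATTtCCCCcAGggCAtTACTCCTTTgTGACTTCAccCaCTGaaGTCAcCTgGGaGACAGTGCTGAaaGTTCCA
Tssk2, chr16:17898502-17898622, plus strand: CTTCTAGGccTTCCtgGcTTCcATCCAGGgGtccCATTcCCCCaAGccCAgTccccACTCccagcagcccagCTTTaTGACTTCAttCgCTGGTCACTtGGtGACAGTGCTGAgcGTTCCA

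The cyclic AMP response element, TGACGTCA, was found on either strand in 0 of the 5 Tssk windows from 250 bases before to 50 after the start, and in 1.79% of all 32851 such windows. Its core, TGACG, which is contained in the full element, was found in 1 of the 5, that of Tssk6, and in 20.81% of all windows. The core is in capitals in the stretch around the match, which lies 73 bases before the start at its first base:
Tssk6, chr8:69902081-69902145, plus strand: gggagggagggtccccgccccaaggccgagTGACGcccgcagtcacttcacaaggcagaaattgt

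Depth could not be read from the files, since FPKM values carry no totals. Each library summed to between 470243 and 513817 FPKM, with 20619 to 20840 genes above 0. The targeted receptor transcripts were near the lower limit of the table. Chrm5 measured 0.37, 0.22 and 0.37 FPKM in M5 and 0.43, 0.23 and 0.43 FPKM in MNC (two-sided exact permutation test, p = 0.5, where the smallest possible p is 0.1). By the same exact test, Chrm1 in M1 (p = 0.9) and Chrm3 in M3 (p = 0.3) gave no difference from MNC past the threshold either, so the transcripts give no check of the knockdown labels. At the protein level, the study reported less M5 receptor in M5 knockdown testes, by immunofluorescence and Western blotting. The library labelled M3 replicate 3 stood apart from its group. On a scale where MNC averages 0 and M5 averages 1 over the 820 genes called different between them, it lay at 0.83, while the other 2 M3 libraries lay at 0.11 and 0.2. The differences of the 6 genes that passed or are discussed are given with and without it where they use M3. M5 replicate 3 stood above its group in somatic genes, with 686.7 FPKM summed over 7 Sertoli genes and 3127 FPKM over 5 Leydig genes, against 373.5 and 423.8 FPKM and 1741 and 1499 FPKM in the other 2 M5 libraries.

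Tssk genes were among the abundant transcripts of these testes. Tssk2 had the highest mean FPKM over the 15 libraries, 304.8, rank 211 of 23510. Tssk1 followed at 218.4, Tssk6 at 176.6, Tssk3 at 114.5 and Tssk4 at 94.7 FPKM (rank 1128). Camk4, an 11-exon gene on chromosome 18 (chr18:32934941-33195767, plus strand), averaged 31.0 FPKM. FPKM is scaled per length, but the length used for each gene is not given in the sources used here. Shared reads also affect Tssk1, Tssk2 and Tssk6, so the order of the genes is approximate. Tssk6 and Tssk3 varied most, the highest library holding 2.551 and 2.407 times the FPKM of the lowest, and Tssk1 varied least (1.217 times). For 5 of the 6 genes the lowest library was Con replicate 2, and for Tssk4 it was Con replicate 3.

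**Figure D1:**
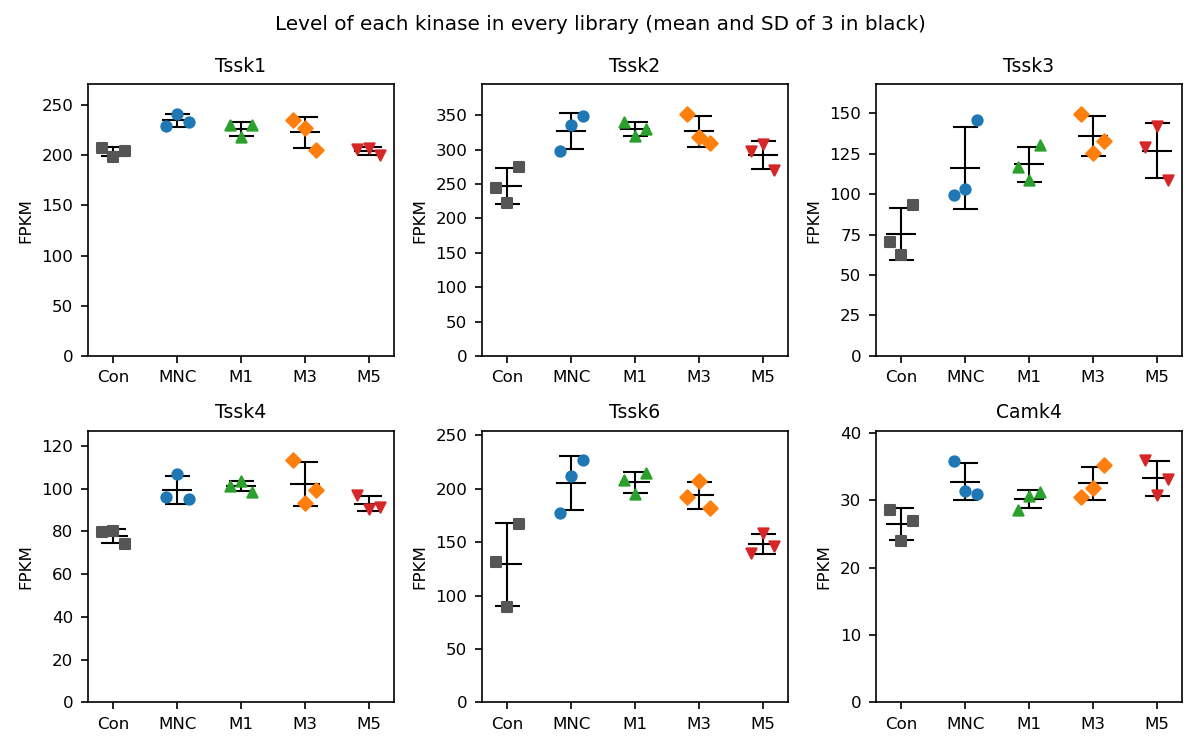
FPKM of the 6 kinase genes (y axis, from 0) in each of the 15 libraries, by group (x axis), with the mean and SD of 3 libraries in black. The mean of Con lies lowest for every gene, and for Tssk6 the 3 M5 libraries (139.38 to 158.1 FPKM) lie below all MNC, M1 and M3 libraries.

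The comparison of M5 with MNC asks what knockdown of the M5 receptor adds to an injection of the control vector. Its largest difference among the 6 genes was in Tssk6, the kinase of the histone-to-protamine exchange. Tssk6 was at 139.38, 158.1 and 146.83 FPKM in the 3 M5 libraries and at 177.72, 212.16 and 226.8 FPKM in the 3 MNC libraries. Every M5 library lay below every MNC library, and the mean in M5 was 0.7205 times that in MNC. The log2 difference was -0.46 (SE 0.10), and its adjusted p of 0.0507 by limma missed the threshold of 0.05. Whole testis was sequenced, so fewer cells of a type and less RNA per cell cannot be told apart in this or any later difference.

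Tssk1 measured 206.19, 207.38 and 200.2 FPKM in M5 and 229.23, 241.59 and 233.44 FPKM in MNC. The groups did not overlap, and the log2 difference was small, -0.20 (SE 0.050, limma adjusted p = 0.0693). Dgcr2, which overlaps Tssk1 on the opposite strand, differed by -0.22 (SE 0.075, adjusted p = 0.135). Tssk2, its neighbour, measured 298.49, 308.86 and 270.11 FPKM in M5 and 298.56, 335.14 and 349.42 FPKM in MNC. Here the ranges overlapped, as M5 replicate 2 exceeded MNC replicate 1, and the log2 difference was -0.16 (SE 0.083, limma adjusted p = 0.282). Tssk3, Tssk4 and Camk4 had overlapping groups too, with log2 differences of 0.14 (95% interval -0.26 to 0.54), -0.09 (-0.25 to 0.06) and 0.02 (-0.19 to 0.23). In all, 0 of the 6 genes passed the test between M5 and MNC, where 5.65% of all genes tested were called, and 2 of the 6 (Tssk1 and Tssk6) had an unadjusted p under 0.05, against 24.9% of all genes. The median log2 difference of the 6 was -0.13, and that of all genes tested was 0.03.

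M5 libraries were also set against those of the other 2 knockdowns. Tssk6 was at 208.27, 195.1 and 214.38 FPKM in M1, so all 3 M5 libraries lay below all 3 M1 libraries, with a log2 difference of -0.47 (SE 0.065, limma adjusted p = 0.016). It was the 1 gene of the 6 called between M5 and M1, where 6.75% of all genes were called in either direction. Against M3, in which Tssk6 was at 192.59, 207.29 and 182.07 FPKM, the groups again did not overlap. The log2 difference was -0.39 (SE 0.079), with an unadjusted p of 0.00187 and a limma adjusted p of 0.338. Between M5 and M3, 0 of the 6 genes and 0.0138% of all genes were called. Without M3 replicate 3 the Tssk6 difference was -0.43 (adjusted p = 0.0713). Tssk1, Tssk2 and Tssk4 also had lower means in M5 than in M1, with log2 differences of -0.14, -0.17 and -0.12. None of these passed (limma adjusted p of 0.116, 0.153 and 0.188). An unadjusted p under 0.05 by limma was found for 4 of the 6 genes between M5 and M1, against 25.4% of all genes.

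The call of Tssk6 between M5 and M1 was lost without M1 replicate 1 (limma adjusted p = 0.0934) and without M1 replicate 3 (0.0793). Without M5 replicate 3 the Tssk6 difference was -0.46 between M5 and MNC (adjusted p = 0.0806) and -0.47 between M5 and M1 (adjusted p = 0.0237). Tssk6 is rich in G and C: its transcripts hold 64.79% GC, above 99.6% of tested genes, against 51.76% to 54.14% in the other 5. With the GC trend of each library removed, an alternative added after the data were seen, its log2 difference shrank to -0.21 between M5 and MNC (adjusted p = 0.386) and to -0.31 between M5 and M1 (adjusted p = 0.152). Ndufa13, which shares sequence with Tssk6, lay the other way, at a log2 difference of 0.18 (SE 0.076, limma adjusted p = 0.203) between M5 and MNC and 0.20 (SE 0.060, adjusted p = 0.0949) between M5 and M1.

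**Figure D2:**
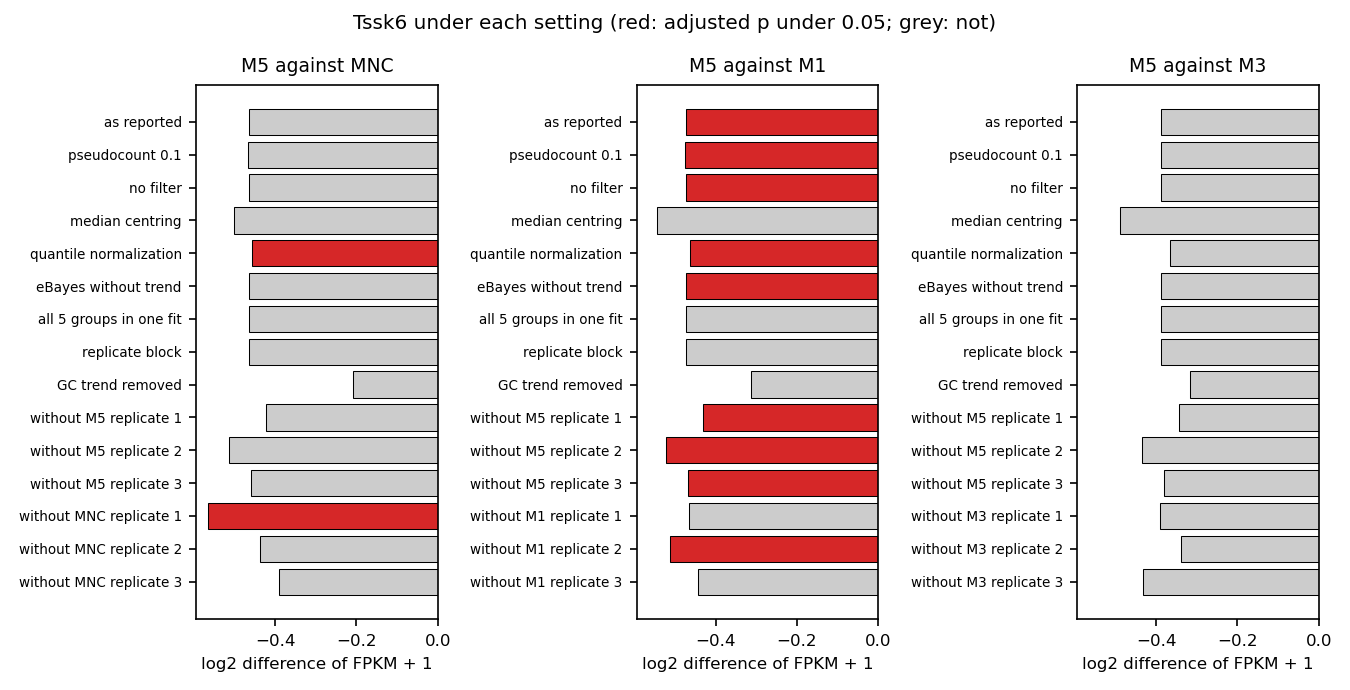
Log2 difference of Tssk6 (x axis, on log2 of FPKM + 1) between M5 and each of MNC, M1 and M3 as reported and under each other setting (y axis). Bars are red where the adjusted p was under 0.05 and grey where it was not. All bars point to lower Tssk6 in M5, and the shortest bar of each panel is the one with the GC trend removed (-0.21, -0.31 and -0.32).

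Other markers moved with M5. Spermatocyte genes, which act before the Tssk genes come on, summed over 7 genes to 452.1 to 482.3 FPKM in M5. This lay above the 376.5 to 389.2 FPKM of MNC. The log2 difference was above 0 for 5 of the 7, and 2 were called higher. These were Sycp1, a synaptonemal complex gene (log2 difference 0.79, SE 0.085, limma adjusted p = 0.0125), and Hormad1, which marks unpaired chromosome axes (0.70, SE 0.061, adjusted p = 0.00634). Mean Sycp1 was 46.4 FPKM in MNC and 80.4 in M5, and mean Hormad1 59.0 and 96.2. The mean of the 7-gene sum was 383.5 and 464.7 FPKM, so these 2 genes made up most of its rise. Of 8 elongating spermatid genes 1 was called, Odf1, a sperm tail gene (-0.51, SE 0.089, adjusted p = 0.0337). The log2 difference was above 0 for 4 of the 8, with a median of 0.02. The summed level of the list ranged from 23261 to 32392 FPKM in M5 and from 23596 to 29901 FPKM in MNC. Of 7 round spermatid genes 1 was called, Acr (-0.27, SE 0.050, limma adjusted p = 0.0363), and 3 of the 7 lay above 0. Red blood cell genes summed to 147.5 to 490.7 FPKM in M5 and to 21.8 to 35.3 FPKM in MNC, with 3 of 5 called higher, and M5 replicate 3 was the highest library. Macrophage genes summed to 239.7 FPKM in that library and to 87.0 and 109.7 FPKM in the other 2 of M5, beside 62.8 to 110.2 FPKM in MNC. In MNC the Sertoli list summed to 452.1 to 514.9 FPKM and the Leydig list to 1546 to 1984 FPKM. Between M5 and MNC 0 of 7 Sertoli, 0 of 5 Leydig and 0 of 5 macrophage genes were called. Over all 14514 genes tested, 400 were called higher and 420 lower in M5 than in MNC. Hba-a2, Hbb-bs and Hbb-bt were each listed at 0 in at least 1 library of the series. Between M5 and M1, 2 of the 8 elongating spermatid genes were called lower, and 4 of the 8 lay above 0. The 2 were Tnp2 (-0.71, SE 0.12, limma adjusted p = 0.027) and Odf1 (-0.59, SE 0.085, adjusted p = 0.0185). Of 7 round spermatid genes Acr (-0.27) and Acrv1 (-0.24) were called lower and Catsper3 (0.22) higher. Sycp1 (0.62) and Hormad1 (0.67) were called higher there too. Over all 14514 genes tested, 469 were called higher and 511 (3.52%) lower in M5 than in M1. The part of these markers in the Tssk6 and Tssk1 differences was not tested.

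Knockdown of M1 or M3 gave no call among the kinases when set against MNC. Tssk6 in M1 averaged 205.9 ± 9.85 FPKM (SD, n = 3) and in MNC 205.6 ± 25.2, a log2 difference of 0.01 with a 95% interval of -0.22 to 0.24. Tssk2 averaged 329.9 ± 9.68 FPKM in M1 and 327.7 ± 26.2 in MNC, with an interval of -0.15 to 0.17. The widest interval between M1 and MNC was that of Tssk3, -0.33 to 0.42. In M1 against MNC, 0 of 6 genes were called by limma, 0 had an unadjusted p under 0.05, and 0.0% of all genes were called (862 of 14514 had an unadjusted p under 0.05). In M3 against MNC, 0 of 6 were called, 0 had an unadjusted p under 0.05, and 0.00689% of all genes were called. The M3 differences ran from -0.08 (Tssk6) to 0.24 (Tssk3). Without M3 replicate 3 the value of Tssk2 turned from -0.0042 to 0.03, the 6 values ran from -0.07 (Camk4) to 0.26 (Tssk3), and 0 of 6 were called. Between M1 and M3 0 of 6 genes and 0.0% of all genes were called, and the largest difference among the 6 was -0.20 in Tssk3 (limma adjusted p = 0.899), and -0.21 without M3 replicate 3 (adjusted p = 0.975). The intervals are wide enough that an equal level was not shown for any of the 6.

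The comparisons with Con ask how the injected testes differed from the control group. Injection, virus, age and any other difference of the Con animals cannot be told apart in them. Mean FPKM of all 6 genes was higher in MNC, M1, M3 and M5 than in Con, though for Tssk1 in M5 the log2 difference was only 0.01 and turned to -0.10 under quantile normalization. The 4 comparisons share the 3 Con libraries and are not independent of each other. Of all genes tested, 35.3% had a higher mean in MNC than in Con, 43.4% in M5, 32.6% in M1 and 31.4% in M3.

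Tssk4, whose product phosphorylates ODF2, was the 1 gene of the 6 called in all 4 comparisons with Con. It was at 79.57, 80.09 and 74.01 FPKM in Con, and the lowest value among the 12 injected libraries was 90.55 FPKM, so Con lay below all of them. Tssk4 was at 96.34, 106.72 and 95.07 FPKM in MNC, which gave a log2 difference of 0.35 (SE 0.062, limma adjusted p = 0.024). In M1 it was at 101.37, 103.72 and 98.66 FPKM, 0.37 higher on the log2 scale (SE 0.046, adjusted p = 0.00857). In M3 (113.41, 93.29 and 99.39 FPKM) the difference was 0.38 (adjusted p = 0.0319), and 0.40 without replicate 3 (adjusted p = 0.0489). In M5 (97.3, 90.55 and 91.35 FPKM) it was 0.25 (SE 0.057, adjusted p = 0.0254). The Tssk4 call held in 8 of 8 other settings in M1, 7 in MNC, 5 in M3 and 4 in M5. With 1 library left out it held in 6 of 6 fits in M1, 2 in MNC, 2 in M3 and 1 in M5.

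Tssk3 had the largest differences from Con in M3 and M5. It was at 70.53, 62.19 and 93.35 FPKM in Con, at 149.72, 125.07 and 132.93 FPKM in M3, and at 129.21, 142.15 and 108.47 FPKM in M5. All 6 of these M3 and M5 libraries exceeded all Con libraries, with log2 differences of 0.86 (SE 0.15, limma adjusted p = 0.0279) and 0.75 (SE 0.16, adjusted p = 0.0234). Without M3 replicate 3 the former was 0.87 (adjusted p = 0.0436). It was at 116.61, 108.39 and 130.05 FPKM in M1 (0.66, adjusted p = 0.0216). In MNC it was at 99.52, 103.36 and 145.61 FPKM, where replicate 3 stood above the other 2, and the difference of 0.62 (SE 0.20) did not pass (adjusted p = 0.0701).

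Tssk2 was at 244.86, 222.1 and 274.73 FPKM in Con. It rose in MNC by a log2 difference of 0.41 (SE 0.096, adjusted p = 0.0354 by limma), in M1 by 0.42 (SE 0.079, adjusted p = 0.0143) and in M3 by 0.40 (SE 0.094, adjusted p = 0.0341; 0.44 without replicate 3, adjusted p = 0.0483). All M1 libraries (339.55, 320.2 and 329.89 FPKM) and all M3 libraries (352.42, 317.75 and 309.49 FPKM) lay above the highest Con library. In M5, where replicate 3 lay below Con replicate 3, the difference of 0.24 did not pass (adjusted p = 0.112).

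Tssk1 was at 207.27, 198.53 and 204.57 FPKM in Con, the tightest Con group of the 6 (SD 2.2% of the mean). It rose in MNC by 0.21 (SE 0.042, limma adjusted p = 0.0281) and in M1, at 230.49, 218.04 and 230.41 FPKM, by 0.15 (SE 0.041, adjusted p = 0.0336). Under quantile normalization both calls were lost, at 0.09 in MNC (adjusted p = 0.218) and 0.02 in M1 (adjusted p = 0.681). In M3 it was at 235.45, 227.21 and 205.73 FPKM. Replicate 3, the library that stood apart, was the low one and fell within the range of Con, and the difference of 0.13 did not pass (adjusted p = 0.18; 0.18 without replicate 3, adjusted p = 0.0529). Its mean in M5, 204.6 ± 3.85 FPKM, was 1.0056 times the 203.5 ± 4.48 FPKM of Con (95% interval of the log2 difference -0.11 to 0.12).

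Tssk6 was at 131.59, 88.89 and 167.13 FPKM in Con, the widest spread of any group (30.32% of the mean). It rose in M1 (0.71, SE 0.21, limma adjusted p = 0.0426). Differences of like size in MNC (0.70, adjusted p = 0.0721) and M3 (0.63, adjusted p = 0.072; 0.67 without replicate 3, adjusted p = 0.109) did not pass. In M5 the difference was 0.24 with an interval of -0.27 to 0.75. With the GC trend removed, Tssk6 differed from Con by 0.52 in M5 (adjusted p = 0.168) and by 0.84 in M3, where it then passed (adjusted p = 0.044). Camk4 was at 28.6, 23.99 and 26.95 FPKM in Con and at 35.97, 30.74 and 33.11 FPKM in M5, groups that did not overlap, and rose there by 0.32 (SE 0.088, adjusted p = 0.0464). This call was lost whichever of the 6 libraries was left out (limma adjusted p 0.0569 to 0.122) and held in 4 of 8 other settings. The Camk4 differences in MNC (0.30), M1 (0.18) and M3 (0.29) had adjusted p of 0.0583, 0.0925 and 0.056, and without M3 replicate 3 the last was 0.23 (adjusted p = 0.0993).

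In counts, 3 of the 6 genes were called higher in MNC than in Con (Tssk1, Tssk2 and Tssk4), beside 8.03% of all genes. In M5 there were 3 (Tssk3, Tssk4 and Camk4), beside 9.32%, in M1 there were 5 (all but Camk4), beside 10.3%, and in M3 there were 3 (Tssk2, Tssk3 and Tssk4), beside 7.01%. None was called lower. The median log2 difference of the 6 genes was 0.38 in MNC, 0.25 in M5, 0.40 in M1 and 0.39 in M3, and the median over all genes was -0.10, -0.04, -0.12 and -0.13. Relative to the median of all genes, the medians of the 6 were 0.47, 0.29, 0.51 and 0.52.

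Single Con libraries decided many of these calls. Without Con replicate 1 the number called was 0 in MNC, 0 in M5, 1 in M1 and 0 in M3, and without Con replicate 2 it was 0 in MNC, M5 and M3. Calls over all genes fell with them, from 2967 to 8 in MNC against Con without Con replicate 1, and all 6 log2 differences in MNC stayed at 0.18 or more whichever library was left out.

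**Figure D3:**
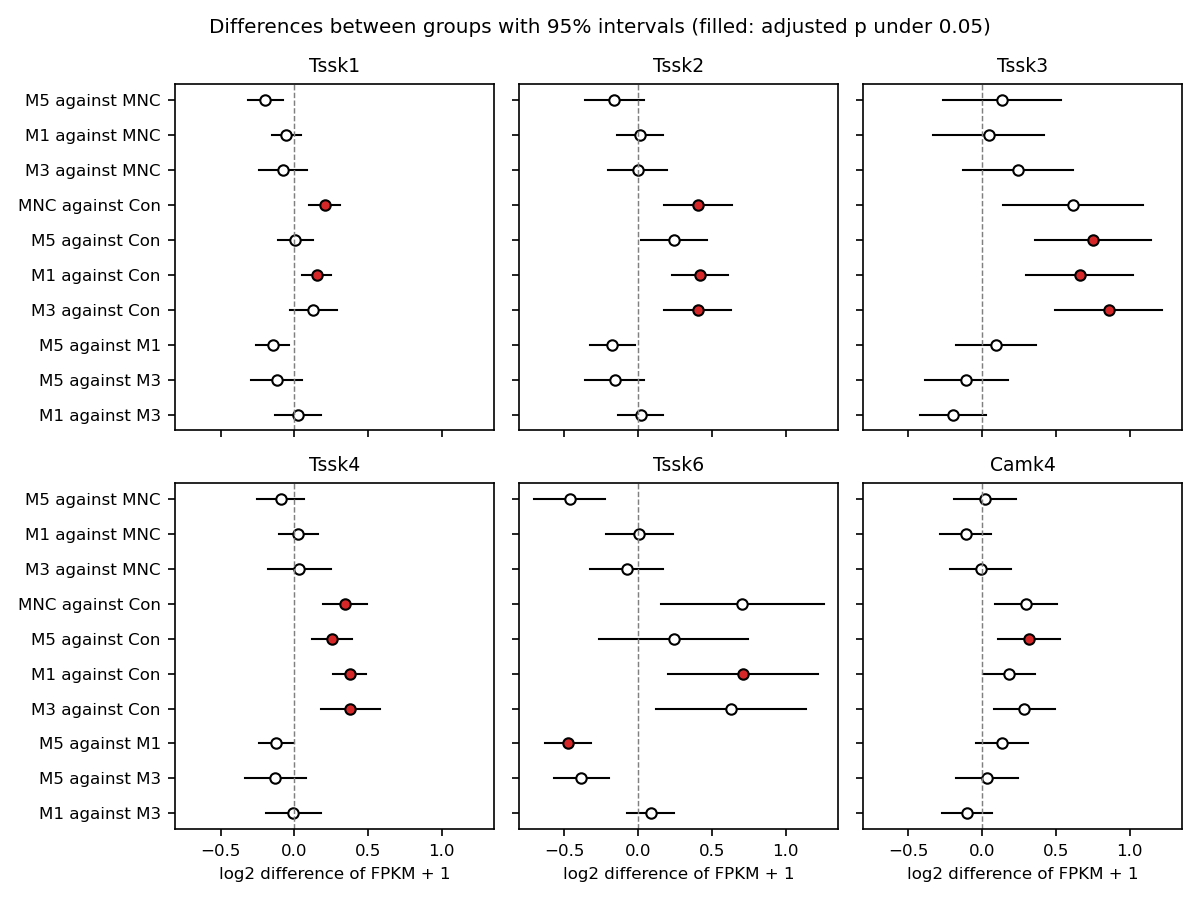
Log2 difference (x axis, on log2 of FPKM + 1) of each kinase in 10 comparisons (y axis), the first group minus the second, with 95% intervals from limma. Filled points had an adjusted p under 0.05. Filled points lie to the right of 0 in the comparisons with Con, and the 1 filled point to the left is Tssk6 in M5 against M1 (-0.47).

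By group means, Con was lowest for all 6 genes. Tssk1 rose in the order Con, M5, M3, M1, MNC and Tssk4 in the order Con, M5, MNC, M1, M3. For Tssk2 and Tssk6 the order was Con, M5, M3, MNC, M1, for Tssk3 it was Con, MNC, M1, M5, M3, and for Camk4 Con, M1, M3, MNC, M5. Neighbours in these orders mostly overlapped. The steps without overlap were Con to MNC for Tssk3, Con to M5 for Tssk4, Con to M1 for Camk4, and M5 to M3 for Tssk2 and Tssk6. M5 stood between Con and the other injected groups for 4 of the 6 genes, and Tssk3 and Camk4 were the exceptions.

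Summed over the 5 Tssk genes, FPKM was 733.1 ± 81.0 in Con (SD, n = 3), 983.6 ± 75.7 in MNC, 981.7 ± 31.6 in M1, 981.3 ± 57.7 in M3 and 864.9 ± 45.3 in M5. The highest Con library (813.8) and the lowest M5 library (817.0) did not overlap, and the highest M5 library (907.0) exceeded the lowest MNC library (901.4). Tssk2 held 32.74% to 34.29% of the sum in every library. Tssk1 held 25.14% to 30.46% in Con and 22.13% to 25.43% in the injected groups. The ratio of Tssk1 to Tssk2 was 0.828 ± 0.076 in Con and 0.683 ± 0.028 to 0.719 ± 0.050 in the others, with overlap between Con (from 0.745) and MNC (up to 0.768).

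Elongating spermatid genes moved beside the Tssk genes in the comparisons with Con. The summed FPKM of 8 such genes (protamines, transition proteins, Odf1, Gapdhs, Akap4 and Smcp) was 16626, 11387 and 22053 in the Con libraries and at least 23261 in every injected library. Tssk2, Tssk3 and Tssk6 followed the same order over the 3 Con libraries, lowest in replicate 2 and highest in replicate 3, whereas Tssk4 was lowest in replicate 3. In MNC 8 of the 8 had a higher mean than in Con (3 called higher, median log2 difference 0.72), and of 7 round spermatid genes 7 did (2 called, median 0.26). Of 7 spermatocyte genes 0 had a higher mean, and 4 were called lower (median -0.34). Over all genes tested, 8.03% were called higher and 12.4% lower in MNC than in Con, and 35.3% had a higher mean. Over the 15 libraries Pearson's r with the elongating spermatid list was 0.873 for Tssk3, 0.864 for Tssk2, 0.806 for Tssk6, 0.647 for Camk4, 0.637 for Tssk4 and 0.461 for Tssk1. With the round spermatid list it was 0.865 for Tssk4 and 0.755 for Tssk1. With the spermatocyte list it was negative for all 6 genes, from -0.93 for Tssk1 to -0.33 for Camk4. These points share libraries and groups, and the part of cell composition in the Tssk differences was not tested.

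**Figure D4:**
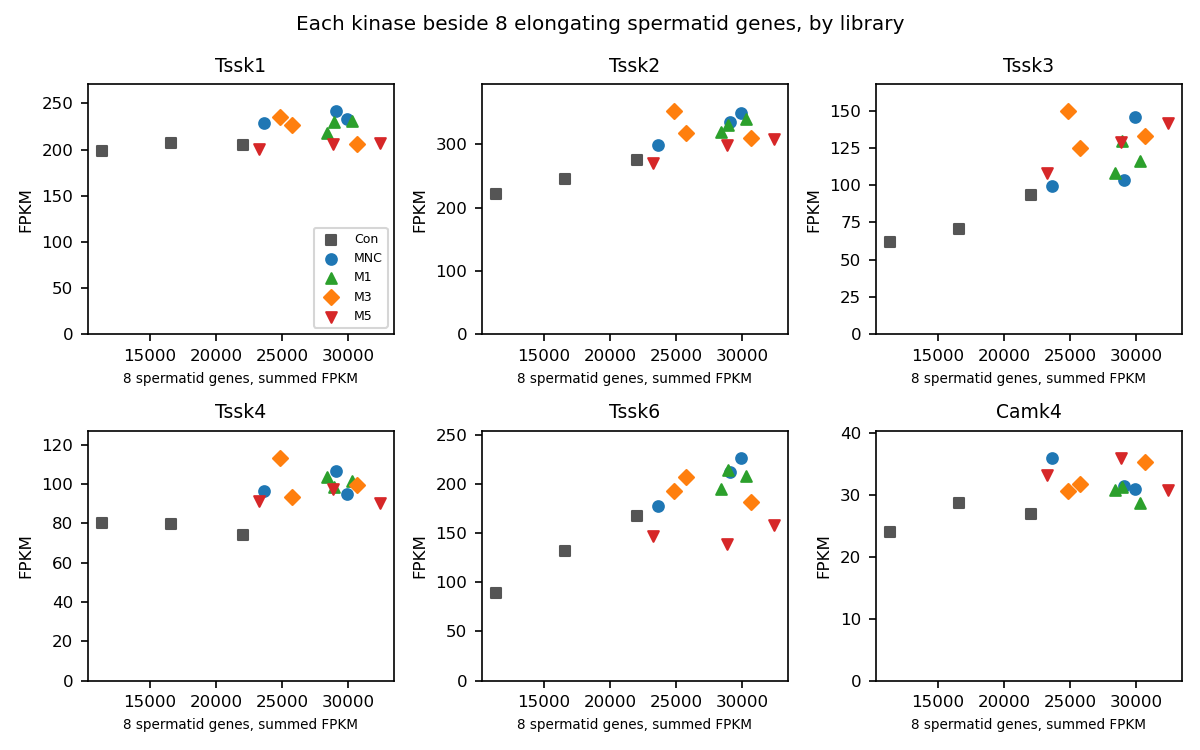
FPKM of each kinase (y axis, from 0) against the summed FPKM of 8 elongating spermatid genes (x axis, not from 0), 1 point per library. The 3 Con libraries lie at the left (11387 to 22053 FPKM), and for Tssk6 the 3 M5 libraries lie lower on the y axis than all other injected libraries. M5 replicate 2 lies farthest to the right (32392 FPKM).

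Epididymis genes were higher in Con and in some M3 libraries. Of 4 epididymis genes only 1, the sperm-coating protein gene Crisp1, passed the filter, and the 4 summed to 10.2 to 33.9 FPKM in Con, to 0.74 to 21.1 FPKM in M3, where the highest library exceeded 2 of the 3 Con libraries, and to at most 0.16 FPKM in MNC, M1 and M5. Up to 2 of the 4 were at 0 in a library of Con or M3. The part of this in the comparisons with Con was not tested.

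Genes that work with the kinases were read from a list of 6 partners (Tssk5, Tsks, Tsacc, Odf2, Spag16 and Ppp1cc). Between M5 and MNC 0 of 6 were called (median log2 difference 0.01), as in M1 and M3 against MNC. Between M5 and M1 1 was called, Tsks, the shared substrate of TSSK1 and TSSK2, with a log2 difference of -0.28 (SE 0.061) and an adjusted p of 0.0462 by limma. Its mean was 206.0 ± 13.2 FPKM in M5 and 250.5 ± 7.03 FPKM in M1. Against Con, 2 partners were called higher in MNC, 1 in M5, 4 in M1 and 2 in M3, beside 8.03%, 9.32%, 10.3% and 7.01% of all genes called higher, with a median log2 difference of 0.31 in MNC beside -0.10 for all genes. Without M3 replicate 3 the count in M3 was 1. Tsks rose in MNC by 0.54 (SE 0.099, adjusted p = 0.0251) from 171.8 ± 21.5 FPKM in Con to 248.8 ± 15.2 FPKM. Odf2, the substrate of TSSK4, rose in MNC by 0.30 (adjusted p = 0.0425) and in M3 by 0.40 (adjusted p = 0.0348; 0.34 without replicate 3, adjusted p = 0.059). Tsacc, the co-chaperone of TSSK6, rose in M5 by 0.52 (SE 0.13, adjusted p = 0.0341), where Tssk6 itself had not passed, and in M1 by 0.44 (adjusted p = 0.0299).

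Of 15 genes of the calmodulin kinase pathway around Camk4, 11 passed the filter, and 0 of them were called in the 6 comparisons without Con. Against Con, 3 were called lower in MNC, 1 in M5, 5 in M1 and 3 in M3 (1 without M3 replicate 3), beside 12.4%, 12.3%, 23.9% and 15.1% of all genes called lower. The 1 gene called higher was in M1. Calm2, a calmodulin gene, fell by 0.34 in MNC (SE 0.072, limma adjusted p = 0.0293), and Camk2g, another calmodulin-dependent kinase, fell by 0.36 (adjusted p = 0.0256). The gene called higher in M1 was Crem, a transcription factor of spermatids (0.16, SE 0.042, adjusted p = 0.0294). Camk4, which rose or kept a higher mean in the same comparisons, had the opposite sign to the medians of the list (-0.17 in MNC and -0.25 in M1).

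Of 10 other kinases known from the testis, 2 were called lower in M5 than in MNC and the same 2 lower than in M1, beside 2.89% and 3.52% of all genes called lower. Tesk1, a kinase of the actin regulator cofilin, averaged 269.5 ± 3.44 FPKM in M5 and 361.5 ± 37.4 FPKM in MNC, a log2 difference of -0.42 (SE 0.082, limma adjusted p = 0.0414). Prkaca, the catalytic subunit of protein kinase A, fell from 61.1 ± 0.838 to 45.6 ± 1.13 FPKM (-0.42, SE 0.051, adjusted p = 0.0163). Between M5 and MNC the Tssk6 difference (-0.46, SE 0.10) was of like size with a larger SE. Against Con the likeness did not hold. Prkaca (-0.48, limma adjusted p = 0.0056) and Tesk1 (-0.25, adjusted p = 0.0347) were called lower in M5 than in Con, where Tssk6 differed by 0.24 (adjusted p = 0.461).

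Among the 6 genes, pairs moved together to differing degrees over the 15 libraries. Pearson's r was highest for Tssk2 and Tssk6 (0.915) and for Tssk2 and Tssk3 (0.856), and lowest for Tssk1 and Camk4 (0.200). With group means subtracted, Tssk2 with Tssk3 (0.862) and Tssk2 with Tssk6 (0.773) kept a high r, Tssk1 with Tssk2 had 0.609, and Tssk4 with Tssk6 (-0.339) and Tssk1 with Camk4 (-0.375) were negative. The 5 other genes most like the mean profile of the 6 were Grip1 (r = 0.984), Gm5901 (0.981), Hk1 (0.977), Cdc14b (0.975) and Nt5c1b (0.973), over 15 libraries. With group means subtracted they were Map2k7 (0.925), Lpin1 (0.922), Ccdc187 (0.920), Cdc14b (0.911) and Atp1a4 (0.908), where an identifier without a symbol, ranked above Cdc14b, was passed over. Cdc14b stood in both sets. These values describe libraries that share their groups and tissue makeup, and they carry no test.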

How the data were processed

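Whole-testis mRNA was enriched with oligo(dT) beads, primed with random hexamers and sequenced on an Illumina instrument. Per the study's methods, reads were mapped with SOAPaligner and scaled by the authors to gene length and library size. The authors deposited FPKM per gene and library (build mm10 per the labels) in 1 table, from which all values here were computed. Entrez identifiers were matched to RefSeq symbols (21143 of 23510). Genes with a mean of at least 1 FPKM (14514) were tested on log2(FPKM + 1), a scale that understates changes of low genes, with limma 3.58.1 (lmFit, eBayes with trend, R 4.3.3), 2 groups per fit, two-sided, with Benjamini-Hochberg adjustment over all genes and a threshold of 0.05. The study tested counts with DEGseq, which FPKM does not allow. The labels do not say whether libraries came from separate animals, so p-values measure the spread between these libraries. FPKM gives no depth, and none is known here. The second M5 library was matched to its column by its title, since its description names another column. The 6 genes and the lists were chosen with earlier results of these data known. Non-member genes named are, from each list and comparison, at most 2 called genes with the largest rise and 2 with the largest fall, and the 5 genes most like the mean profile. The test was checked on simulated data. Alternatives were pseudocount 0.1, no filter, median centring, quantile normalization, no trend, all groups in one fit, a replicate block, single libraries left out and, added after the data were seen, removal of the GC trend. Libraries were not treated as paired by replicate number, except in the replicate block.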

Additional observations from a re-analysis of the deposited data

Results flagged for a closer look

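Tssk6 was tested directly between the 2 knockdowns M5 and M1, which share the vector control MNC. M5 against M1 gave a log2 difference of -0.47 (SE 0.065, limma adjusted p = 0.016), with all 3 M5 libraries below all 3 M1 libraries. Against MNC, Tssk6 differed by -0.46 in M5 and by 0.01 in M1, and neither passed (adjusted p = 0.0507 and 0.989). The call between M5 and M1 was lost with the GC trend removed (-0.31, adjusted p = 0.152), with median centring (adjusted p = 0.0597), with all 5 groups in one fit (0.0903), with the replicate block (0.0961), and without M1 replicate 1 (0.0934) or 3 (0.0793). Its cause was not tested. No group had 4 or more libraries, so no library could be tested against its own group.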

How the results depend on the processing

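Over 480 values of the 6 genes under other settings than those reported, 415 kept their direction and their side of the threshold, 33 lost a call, 16 gained one and 16 changed sign. Over 360 values with 1 library left out, the counts were 274, 55, 1 and 30. Most values in both sets belong to differences that were uncalled as reported and so had no call to lose. For the called differences, other settings kept the call more often than they lost it. The calls held in 4 of 8 settings (Camk4, M5 against Con) to 8 of 8 (Tssk4, M1 against Con). Leaving out 1 library lost these calls more often than it kept them. They held in 0 of 6 such fits (Camk4, M5 against Con) to 6 of 6 (Tssk4, M1 against Con). With 3 libraries a group and no known depth, small differences cannot be resolved, and the causes of the changes that follow were not tested.

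The number of the 6 genes called went from 3 to 6 in MNC against Con, from 3 to 5 in M3 against Con, from 0 to 1 in M5 against MNC and from 1 to 0 in M5 against M1 with all 5 groups in one fit. Without the filter on low values it was 3 in M1 against Con, 1 in M3 against Con and 1 in M5 against Con. Under quantile normalization it was 3, 1 and 2 in these, and 1 in M5 against MNC. It was 1 in M5 against Con both with median centring and with eBayes without trend, and 0 in M5 against M1 with median centring. With the GC trend removed it was 5 in M3 against Con and 0 in M5 against M1. With 1 library left out it ranged from 1 to 4 in M1 against Con, 0 to 3 in M3 against Con, 0 to 2 in M5 against Con, 0 to 3 in MNC against Con, 0 to 1 in M5 against M1 and 0 to 1 in M5 against MNC. Calls over all genes in M5 against MNC, 820 as reported, were 182 with median centring, 447 without the filter, 215 without trend, 77 with the GC trend removed and 2424 with all 5 groups in one fit.

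Correlations of deviations between same-numbered libraries ranged from -0.399 to 0.193 and no comparison had all 3 above 0.1. In M1 against Con they ran from 0.077 to 0.193. What a replicate number stands for is not given in the sources used here, so whether it marks shared handling is not known. With the replicate block 0 of the 6 genes were called in MNC, M5 and M3 against Con and in M5 against M1, 5 in M1 against Con, and 14 of all genes in M5 against MNC.

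Differences that changed sign were all uncalled. For Camk4 the log2 difference was 0.0452 (GC trend removed) and 0.0569 (median centring) in M3 against MNC, -0.0112 and -0.0717 in M5 against M3, and -0.0148 with median centring in M5 against MNC. For Tssk2 the same 2 settings gave 0.0778 and 0.0615 in M3 against MNC and -0.0286 and -0.0169 in M1 against M3, and for Tssk1 -0.0104 and -0.009 in M1 against M3. Removing the GC trend gave 0.1096 for Tssk6 in M3 against MNC and -0.0037 in M1 against M3. Quantile normalization gave -0.0004 for Tssk1 in M3 against Con, -0.1006 in M5 against Con, and -0.0091 for Tssk2 in M1 against MNC. With 1 library left out, the ranges that crossed 0 were -0.0664 to 0.0568 (Camk4, M3 against MNC), -0.0247 to 0.0888 (Camk4, M5 against M3), -0.0336 to 0.0882 (Camk4, M5 against MNC), -0.0318 to 0.0651 (Tssk1, M1 against M3), -0.0094 to 0.0235 (Tssk1, M5 against Con), -0.021 to 0.0724 (Tssk2, M1 against M3), -0.0532 to 0.0599 (Tssk2, M1 against MNC), -0.0696 to 0.0435 (Tssk2, M3 against MNC), -0.0556 to 0.2167 (Tssk3, M1 against MNC), -0.0681 to 0.0714 (Tssk4, M1 against M3), -0.0024 to 0.0802 (Tssk4, M1 against MNC), -0.0431 to 0.0964 (Tssk4, M3 against MNC), -0.0919 to 0.0831 (Tssk6, M1 against MNC), -0.0039 to 0.4478 (Tssk6, M5 against Con), -0.1176 to 0.0106 (Chrm5, M5 against MNC) and -0.0088 to 0.0236 (Chrm1, M1 against MNC).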
